A study of Mus musculus with 6 samples.

Results

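Nkg7, Prf1 and Klre1 are genes of the cytotoxic granule and of natural killer (NK) cell recognition, and their transcripts were followed here in T cells with and without the transcription factor Irf4. They were taken as the probes that carry one of these symbols in the authors' deposited table of results, which gave 4 probes for 3 genes (2 for Nkg7, 1 each for Prf1 and Klre1) out of 22749 probes on the array and 688 genes named there. Spleens of mice on a C57BL/6J background, Irf4 -/- (null) or Irf4 +/- (heterozygous), gave naive T cells gated as CD4+, CD62L-high and negative for CD25, with 3 samples of each genotype. For heterozygous replicate 3 the free-text description writes the genotype ambiguously, and the sample was grouped by its title, with which its genotype field matches. Both groups were cultured for 42 h on anti-CD3-coated plates with anti-CD28, IL-6 and IL-23 (20 ng/ml each), human TGF-beta (1 ng/ml) and blocking antibodies to IL-4 and interferon gamma, a mixture that drives T cells toward the IL-17-producing Th17 fate. The controls carried 1 functional Irf4 copy, and wild-type cells were not analysed here. Each sample was hybridised with Cy5 against Cy3-labelled RNA pooled from 11 mouse tissues, so each value is a log2 ratio to that reference on the same probe. The design text calls the samples biological replicates. The labels do not say whether each came from its own animal, so a p-value here reflects how far these 6 samples scatter, which may be technical.

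Cytotoxic lymphocytes kill by releasing granules toward a target cell. Prf1 encodes perforin, which forms pores in the target membrane and lets granule proteases enter. Nkg7 encodes a membrane protein of these granules that in mice is needed for efficient degranulation. Klre1 encodes a lectin-like receptor of the NK gene complex, which in mice and rats pairs with the receptors encoded by Klri1 and Klri2. All 3 genes are best known from NK cells and CD8 T cells, while Th17 cells are not classed as killers. Irf4 binds DNA with partner factors in activated lymphocytes, at composite elements shared with AP-1 or ETS factors and at interferon-type elements.

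The stretches just before the annotated starts are shown because 2 of the genes were higher and 1 was lower in null cells, so their upstream letters can be set side by side. The sequences are from RefSeq in the build GRCm38.p6, on the plus strand, at chr7:43436888-43437137 for Nkg7, chr10:61297586-61297750 for Prf1 and chr6:129577963-129578212 for Klre1. The Prf1 stretch stops at its most upstream annotated start, and the first of the 2 annotated starts of Klre1 was used. Capitals mark the RUNX core TGTGGT or its reverse complement ACCACA and, in Klre1 alone, 1 match to the letters GGAANNGAA.
Nkg7: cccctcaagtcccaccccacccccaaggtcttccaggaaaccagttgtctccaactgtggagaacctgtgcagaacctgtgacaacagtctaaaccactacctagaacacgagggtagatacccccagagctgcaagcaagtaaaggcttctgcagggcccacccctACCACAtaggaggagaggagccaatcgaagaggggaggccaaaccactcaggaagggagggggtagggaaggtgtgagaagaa
Prf1: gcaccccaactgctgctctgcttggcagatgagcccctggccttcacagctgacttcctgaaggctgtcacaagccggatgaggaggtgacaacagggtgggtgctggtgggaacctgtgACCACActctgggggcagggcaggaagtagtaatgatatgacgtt
Klre1: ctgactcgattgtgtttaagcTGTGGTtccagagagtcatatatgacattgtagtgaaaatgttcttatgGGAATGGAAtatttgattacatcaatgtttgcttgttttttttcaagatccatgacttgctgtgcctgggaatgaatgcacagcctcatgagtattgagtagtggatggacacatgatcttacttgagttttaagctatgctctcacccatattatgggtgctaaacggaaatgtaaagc
Each of the 3 stretches held the RUNX core 1 time, on the minus strand in Nkg7 and Prf1 and on the plus strand in Klre1. The same letters stood in 14.0% of the 32851 promoter windows at 250 bases and in 9.52% at the 165 bases shown for Prf1. The stretch before the other annotated start of Klre1 held none of the motifs searched. The letters GGAANNGAA, the core of an element shared by ETS factors and Irf4, were found 1 time in Klre1 and not in Nkg7 or Prf1, and stood in 6.99% of the 250-base windows. The AP-1 letters TGANTCA and the interferon-type letters GAAANNGAA stood in 6.75% and 7.13% of these windows and were not found in the 3 stretches. All motifs were searched on both strands, and none of the matches overlapped. A match here is a match of letters only.

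Irf4 itself checked the labels. Its probe read between 0.62 and 0.73 in null cells and between 2.85 and 3.02 in heterozygous cells (log2 ratio to reference), a log2 fold change of -2.26 (SE 0.12, limma adjusted p = 0.00217). The deleted part of the gene and the place of this probe in it were not used here. Array medians lay between -0.03 and 0.06, and 0.673% to 5.28% of the probes of an array were listed at exactly 0, a value whose meaning the labels do not explain. Across all probes, 3.19% passed the threshold of an adjusted p under 0.05 (1.63% higher and 1.56% lower in null cells), and the 2 groups did not overlap for 30.2%. The authors' deposited table, the only source of names, holds 3.64% of the probes on the array. Each was kept for a change of over 2-fold with an unadjusted p under 0.05 between these same samples. The tests below are thus not independent evidence that the genes changed. Of the 828 probes in that table, 58.5% passed the threshold, 48.4% had positive and 51.6% negative values. The counts of named probes below are to be read against these shares.

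Of the 4 probes, 1 for Nkg7 rose and that for Klre1 fell past the threshold in null cells, while the second Nkg7 probe and the Prf1 probe had positive values that did not pass. A count of 2 in 4 is near the 58.5% of all probes in the authors' deposited table. Nkg7 and Prf1 were above the reference on all 6 arrays, and more so in null cells. Klre1 was above the reference on the 3 heterozygous arrays and near it on the null arrays. The groups did not overlap for any of the 4 probes, against 12.4% of all probes with no overlap and higher null values and 17.7% with no overlap and lower null values, but the same held for all 828 probes in the authors' deposited table.

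**Figure D1:**
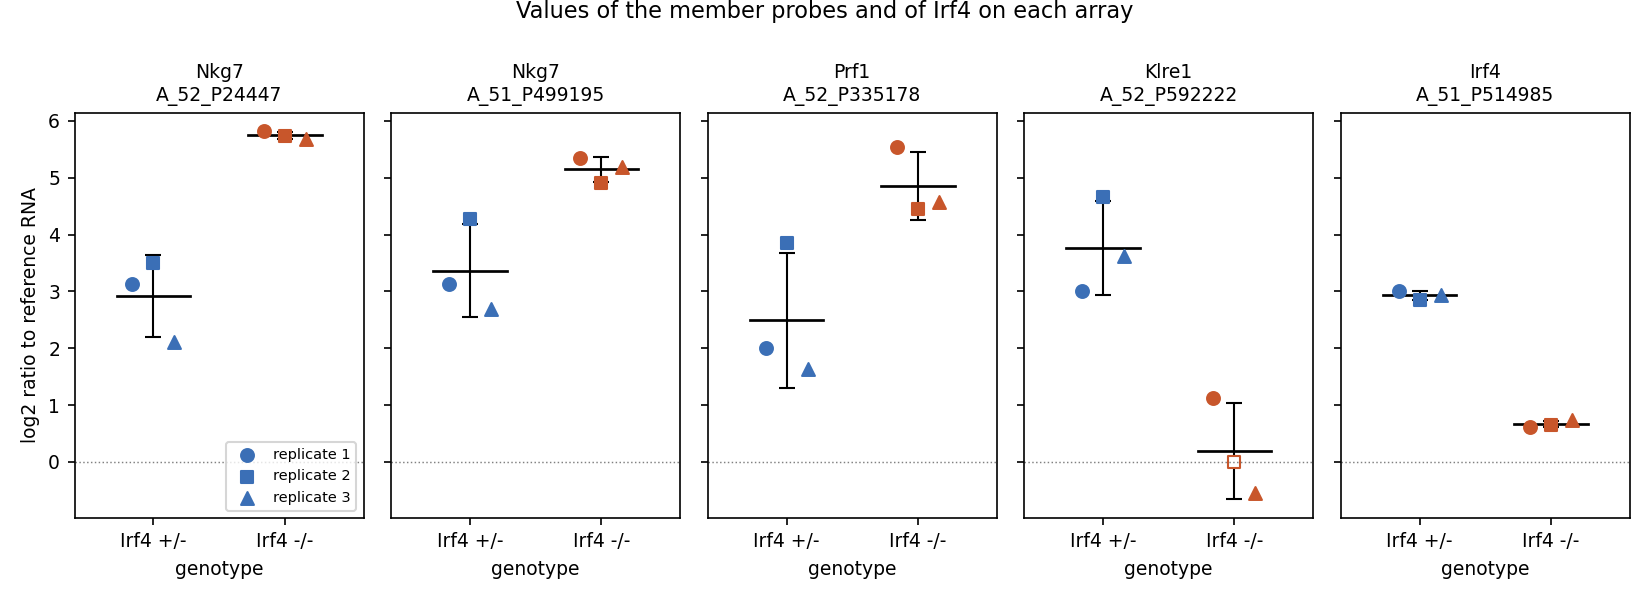
Log2 ratio to the reference RNA (y axis) of the 4 member probes and of Irf4 in heterozygous (blue) and null (orange) samples. Symbols mark replicates 1 to 3, horizontal lines are group means, error bars are SD (n = 3) and the open symbol is a value of exactly 0. Both Nkg7 probes and Prf1 are higher in all null samples, Klre1 and Irf4 are lower in all null samples, and heterozygous replicate 2 is the highest of its group for each member probe.

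Nkg7 was measured by 2 probes. On probe A_52_P24447 null replicates 1, 2 and 3 had log2 ratios of 5.81, 5.74 and 5.69, and heterozygous replicates 1, 2 and 3 had 3.13, 3.51 and 2.12. The null samples were nearly alike, the heterozygous samples were spread over 1.39 log2 units, and the gap between the groups was 2.18. The means of 5.75 ± 0.06 in null and 2.92 ± 0.72 in heterozygous cells (SD, n = 3 each) gave a 7.11-fold rise. On the log2 scale the change was 2.83 with an SE of 0.35 and a 95% interval from 1.97 to 3.69 (limma adjusted p = 0.0189). The change was larger in size than that of 99.7% of all probes, while the pooled within-group SD of 0.51 exceeded that of 79.8% of them.

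On the second Nkg7 probe, A_51_P499195, the log2 ratios were 5.34, 4.91 and 5.19 in null cells and 3.13, 4.27 and 2.69 in heterozygous cells. Heterozygous replicate 2 came within 0.65 of the lowest null sample. Null cells averaged 5.15 ± 0.22 and heterozygous cells 3.36 ± 0.81 (SD, n = 3 each), and the change of 1.79 on the log2 scale (SE 0.41, 95% interval from 0.80 to 2.77) gave a limma adjusted p of 0.0816. The 2 probes thus gave the same direction with values of 7.11-fold and 3.45-fold. Within samples, the first probe read above the second by 0.47, 0.82 and 0.50 in the null samples and by -0.001, -0.76 and -0.58 in the heterozygous samples. The difference in log2 fold change was 1.04, with an exact permutation p of 0.1 (two-sided, n = 3 each), the smallest that 3 against 3 samples can give. With both probes averaged, as 1 gene, the log2 fold change was 2.31 (adjusted p = 0.0392).

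Prf1 had the widest spread of the 4 probes. Its log2 ratios were 5.54, 4.44 and 4.57 in null cells and 2.0, 3.85 and 1.63 in heterozygous cells. All null samples were above all heterozygous samples, with a gap of 0.60 between null replicate 2 and heterozygous replicate 2. Null cells averaged 4.85 ± 0.60 and heterozygous cells 2.49 ± 1.19 (SD, n = 3 each), and the change of 2.36 on the log2 scale (SE 0.63, 95% interval from 0.83 to 3.89) came with a limma adjusted p of 0.113. The mean ratio of null to heterozygous cells was 5.13-fold, a larger change than on 99.5% of probes. The pooled SD of 0.94 was also above that of 98.1% of probes. The authors' deposited table gives an unadjusted p-value of 0.0373 for this probe, against their limit of 0.05.

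Klre1 showed the largest change of the 4 probes and the opposite direction. Null replicates 1, 2 and 3 had log2 ratios of 1.12, 0 and -0.55, and heterozygous replicates 1, 2 and 3 had 3.01, 4.66 and 3.62. The groups were 1.88 apart, and the value of null replicate 2 was exactly 0. The means of 0.19 ± 0.85 in null and 3.76 ± 0.83 in heterozygous cells (SD, n = 3 each) gave an 11.9-fold fall. On the log2 scale the change was -3.57 with an SE of 0.57 and a 95% interval from -4.94 to -2.19 (limma adjusted p = 0.0333). The 95% interval of the group mean ran from 2.79 to 4.73 in heterozygous cells and from -0.78 to 1.16 in null cells, so the null level could not be told from that of the reference. With exact zeros treated as missing, null replicate 2 dropped out, the log2 fold change was -3.47 and the adjusted p was 0.0746.

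**Figure D2:**
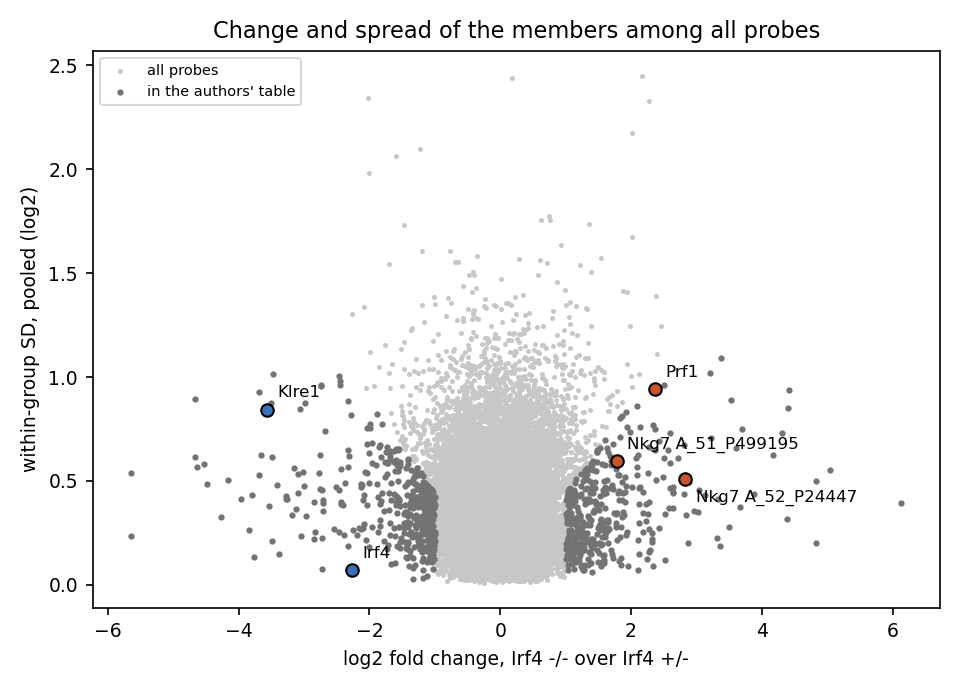
Log2 fold change of null over heterozygous cells (x axis) against the pooled within-group SD in log2 units (y axis) for all 22749 probes (light grey), those in the authors' deposited table (dark grey) and the members with Irf4 (coloured). Irf4 has an SD of 0.07, while Prf1 and Klre1 have SDs of 0.94 and 0.84.

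Whether a probe passed changed for all 3 genes when single samples were left out. Leaving out 1 sample at a time, the first Nkg7 probe passed only without heterozygous replicate 2 or 3 (adjusted p = 0.0308 and 0.0245), and had 0.0619, 0.0975, 0.0545 and 0.0747 without null replicate 1, 2 or 3 or heterozygous replicate 1. The second Nkg7 probe and Prf1 passed only without heterozygous replicate 2, with limma adjusted p-values of 0.0278 and 0.0455 and log2 fold changes of 2.24 and 3.04. Klre1 passed only without null replicate 1 (adjusted p = 0.0465), and had 0.0753 to 0.134 without any other sample. The log2 fold changes in these fits were 2.43 to 3.12 and 1.45 to 2.24 for the Nkg7 probes, 1.93 to 3.04 for Prf1 and -4.03 to -3.12 for Klre1. Of all probes, 70 to 398 passed in these fits, against 725 with all samples. Failing such a fit thus does not by itself show that 1 sample carried a call.

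**Figure D3:**
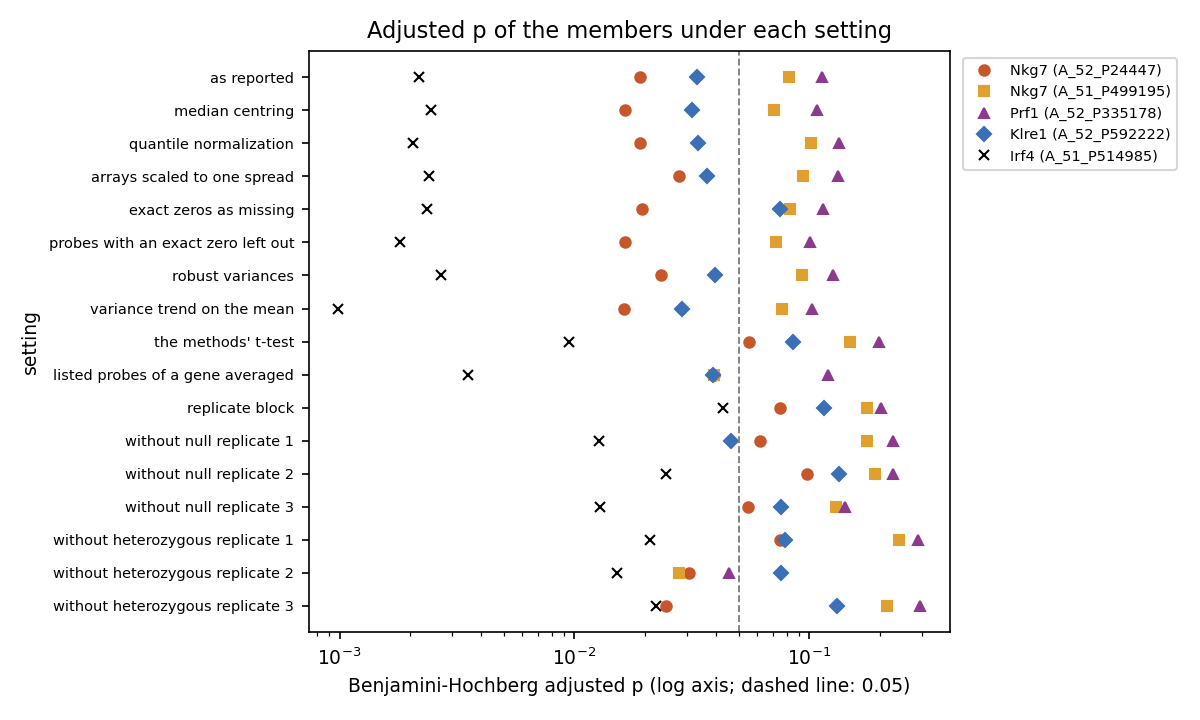
Benjamini-Hochberg adjusted p (x axis, log scale, dashed line at 0.05) of the 4 member probes and Irf4 under each setting (y axis). Irf4 stays below 0.05 in every row, the first Nkg7 probe and Klre1 cross the line under several settings, and Prf1 is below it only without heterozygous replicate 2.

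Within each genotype the 4 probes had the same sample on top. Null replicate 1 was the highest null sample and heterozygous replicate 2 the highest heterozygous sample on all 4 probes, although Klre1 changed in the other direction between genotypes. Over all probes, null replicate 1 was the highest of its group on 37.1% and heterozygous replicate 2 on 40.2%. Heterozygous replicate 3 was lowest for both Nkg7 probes and Prf1, and heterozygous replicate 1 was lowest for Klre1. Centred on their own means over the 6 samples, the values of the Prf1 probe lay a root mean square of 0.44 and 0.58 log2 units from those of the Nkg7 probes, and the Nkg7 probes lay 0.58 from each other. Klre1 lay 2.73 to 3.27 from the other 3 probes. The measure holds the difference between genotypes as well as the spread within them, so it partly repeats the fold changes.

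By the same measure over the 6 samples, the named genes with the nearest values to the first Nkg7 probe were Wls, Mst1r and Tnfsf10, at 0.15, 0.22 and 0.24 log2 units. Those nearest to the second Nkg7 probe were Trim12a, Zfp945 and Epcam, at 0.20, 0.20 and 0.22. For Prf1 they were Rhoj at 0.28, Pirb at 0.38 and Nkg7 itself at 0.44. No named gene lay as close to Klre1, where Cyp11a1, Timd2 and Cd86 came nearest at 0.62, 0.64 and 0.66. The measure is not scaled to the size or spread of a change, so these distances do not show that the pattern of Klre1 was distinct.

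The killing machinery was followed through 5 lists that include the members, and only the genes named in the authors' deposited table could be read. Of 23 genes on the granule effector list 4 were named, and Nkg7, Tnfsf10 and Cst7 rose, 0 fell, and Prf1 and the second Nkg7 probe did not pass. The list is broad: Tnfsf10 encodes a death ligand and Cst7 a protease inhibitor, so neither is a granule effector in the strict sense. The 3 of 5 probes that passed are close to the share among all listed probes. The median log2 fold change of the 5 probes, which include those of Nkg7 and Prf1, was 2.36, the value of Prf1 itself. The median was -0.05 over all probes on the array and 1.43 over the listed probes with positive values. The authors' 2-fold limit keeps every listed value outside -1 to 1. Tnfsf10, which encodes the death ligand TRAIL, read 2.27, 2.31 and 2.25 in null cells and -0.53, 0.41 and -0.86 in heterozygous cells (log2 fold change 2.60, limma adjusted p = 0.0189). Cst7, which encodes cystatin F, an inhibitor of granule-associated cathepsins, read 2.45, 2.34 and 2.17 in null cells and 1.17, 0.62 and 0.89 in heterozygous cells, with a log2 fold change of 1.42 (adjusted p = 0.02). Both genes separated the groups, as did all 828 probes in the authors' deposited table. In the heterozygous group Tnfsf10, like Nkg7, Prf1 and 40.2% of all probes, was highest in replicate 2, while Cst7 was lowest there. No granzyme gene of the list had a named probe. Names exist only for probes that the authors selected, so the proteases that perforin admits could not be read here.

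Of 13 genes of granule transport and release, 3 were named, with a median log2 fold change of -1.03. Sytl2, which encodes an effector of the small GTPase Rab27a, rose from a mean of -1.82 to -0.57 (log2 fold change 1.24, limma adjusted p = 0.0241). Stx11, a syntaxin needed for granule fusion, fell by 1.62 on the log2 scale (adjusted p = 0.0209). Lyst, a regulator of lysosome-related organelles, had a log2 fold change of -1.03 (adjusted p = 0.0669). The release genes that passed therefore included 1 rise and 1 fall.

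Of 29 lectin-like receptor genes of the NK gene complex and their ligands, 6 were named. Klre1 and Clec2d fell, Clec2i rose and 3 did not pass, with a median log2 fold change of -1.71. Klri2, which encodes a pairing partner of the Klre1 product, read 1.22, 3.95 and 2.16 in heterozygous cells, while each null array lists it at exactly 0 (adjusted p = 0.114). Like Klre1, it was highest in heterozygous replicate 2, as were 40.2% of all probes, and lowest in heterozygous replicate 1. Klrc3, a member of the NKG2 family, read 2.99, 3.87 and 4.13 in null cells and 5.48, 6.42 and 5.13 in heterozygous cells (log2 fold change -2.01, limma adjusted p = 0.0702). Klrc1, which encodes the inhibitory receptor NKG2A, had a log2 fold change of -1.41 (adjusted p = 0.134). Klrc1, Klrc2 and Klrc3 are close paralogs, and probe sequences were not used here, so which of them each probe reads is uncertain.

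In the RefSeq annotation of GRCm38.p6, Klre1, Klrd1, Klrk1, Klrc3, Klrc2, Klrc1, Klri1 and Klri2 follow each other as 8 neighbouring protein-coding genes on chromosome 6. Of these 8, 4 had a named probe, and all 4 probes were lower in null cells, of which Klre1 alone passed. Over all listed probes 51.6% were lower and 58.5% passed. In the wider complex from Klrb1a to Klra1, 6 of 42 genes had a named probe. The other 2 belong to the Clec2 group, whose products are ligands of NKR-P1 receptors. Clec2d read -0.50, -0.44 and -0.36 in null cells and 0.52, 0.84 and 0.93 in heterozygous cells (log2 fold change -1.19, limma adjusted p = 0.02). Clec2i had the opposite sign, with means of 1.45 in null and 0.20 in heterozygous cells (log2 fold change 1.25, adjusted p = 0.036). None of the 5 protein-coding genes on either side of Nkg7 or of Prf1 had a named probe, and 2.95% of the 21900 protein-coding genes of the annotation had one, so such a count says nothing particular about these places.

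Of 23 other NK receptor and adaptor genes, 4 were named and their median log2 fold change was -0.01. Crtam, a receptor of activated CD8 T and NK cells, rose from 4.32, 4.34 and 4.53 to 6.05, 5.87 and 6.02 (log2 fold change 1.59, SE 0.13, limma adjusted p = 0.00645). Havcr2, which encodes the inhibitory receptor TIM-3, had a log2 fold change of 1.73 (adjusted p = 0.0501). Slamf7, a receptor of NK and other lymphocytes, had -1.61 (adjusted p = 0.0871). Cd247, the zeta signalling chain of the T cell receptor, had -2.28 (adjusted p = 0.0926), with 1 null value of exactly 0.

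Of 26 regulators of the cytotoxic programme, 8 were named, with 1 rising and 4 falling, and a median of -1.19 over their 10 probes. Irf4, the gene that the genotype itself changes, is counted among the 4 and in the median. Runx3, a transcription factor of CD8 T and NK cells, fell from 1.78, 1.08 and 1.38 to -0.57, -0.73 and -0.86 (log2 fold change -2.13, limma adjusted p = 0.00996). Its direction was that of Klre1 and opposite to that of Nkg7 and Prf1, as for 7 of the 10 probes of this list. A link between Runx3 and the members was not tested. Tox, a factor needed for NK cell development, rose on both of its probes (log2 fold changes 2.34 and 2.52, adjusted p = 0.00217 each). Il12rb1, a chain of the IL-12 and IL-23 receptors, and Ikzf2, which encodes Helios, fell with log2 fold changes of -2.00 and -1.78, as did Irf4 itself. Eomes, a T-box factor that activates Prf1 in CD8 T cells, read 1.70, 1.94 and 0.53 in null cells and -0.34, 0.28 and 0 in heterozygous cells (log2 fold change 1.41, adjusted p = 0.123). Runx2, with -1.20 and -1.17 on 2 probes, and Nfil3, with -1.0, did not pass (limma adjusted p = 0.0806, 0.111 and 0.0555).

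The calls of the listed genes also differed in how often they passed with 1 sample left out, where fewer probes pass in general. Of the 6 fits that each omitted 1 sample, Tnfsf10, Sytl2 and Clec2i passed in 1, with adjusted p-values of up to 0.0975, 0.117 and 0.154. Clec2d passed in 2, and Cst7 and Stx11 in 3. Runx3 and Ikzf2 passed in 4, and Crtam, Il12rb1 and both Tox probes in 6.

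**Figure D4:**
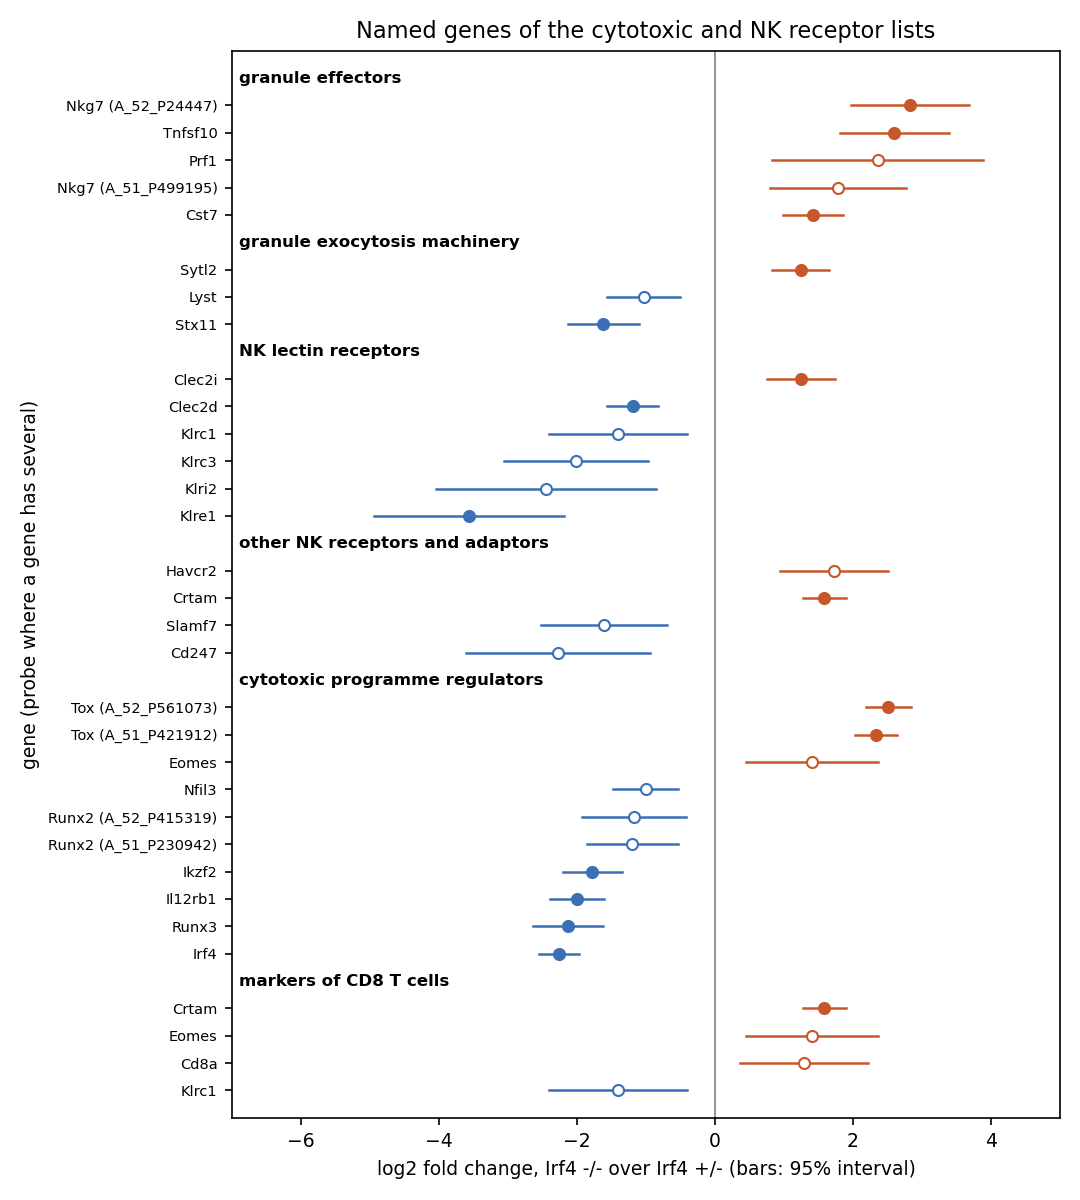
Log2 fold change of null over heterozygous cells (x axis) with 95% confidence intervals for each named probe of 5 cytotoxic and NK receptor lists and of the CD8 T cell markers (y axis). Filled circles passed an adjusted p of 0.05, orange is higher and blue lower in null cells. The 5 probes of the granule effector list, those of Nkg7, Prf1, Tnfsf10 and Cst7, are all positive. Of the 6 NK lectin receptor probes, Klre1 among them, 5 are negative.

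Of 8 CD8 T cell markers 4 were named, of which Cd8a, Eomes and Crtam had positive values, like Nkg7 and Prf1, and Klrc1 a negative one, and Crtam alone passed. Cd8a, which encodes the alpha chain of the CD8 co-receptor and is not expected in CD4+ sorted cells, was above the reference on all arrays, at 4.71, 4.28 and 4.75 in null cells and 3.34, 4.0 and 2.53 in heterozygous cells. Its log2 fold change was 1.29 (SE 0.38, limma adjusted p = 0.136), and in heterozygous cells replicate 2 was highest and replicate 3 lowest, as for Nkg7 and Prf1. In null cells Cd8a was highest in replicate 3, but Nkg7 and Prf1 in replicate 1. Eomes was also highest in heterozygous replicate 2, while Crtam was highest in heterozygous replicate 3 and Klrc1 in heterozygous replicate 1. Over all probes, heterozygous replicate 2 was highest on 40.2%. The mean log2 ratio of the 4 named markers ran from 3.97 to 4.09 over the null samples and from 3.09 to 3.6 over the heterozygous samples. It included 1 value of exactly 0, that of Eomes in heterozygous replicate 3. All 4 markers were named because the authors selected them on this same contrast. A gap between these means therefore does not measure how many CD8 T cells the samples held. The same limit holds for the means of the other marker lists below. Cd8b1 had no named probe. The part of these cells in the values of Nkg7 and Prf1 was not tested, and in such bulk samples fewer cells of a type and less RNA per cell cannot be told apart.

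Of 12 NK cell markers 2 were named, Eomes and Klri2, and 0 passed. Their mean log2 ratio ran from 0.27 to 0.97 in null and from 0.44 to 2.11 in heterozygous cells, with the highest value in heterozygous replicate 2. Klri2 stood at exactly 0 on all null arrays, so the null means vary with Eomes alone, and Eomes stood at exactly 0 in heterozygous replicate 3. The meaning of these zeros is unknown, and the means were not computed without them. The part of NK cells in the values of Klre1 was not tested. Of 8 gamma-delta T cell markers 0 were named. Of 12 B cell and myeloid markers 2 were named: Sdc1 rose (log2 fold change 1.39, limma adjusted p = 0.0209, passing in 2 of the fits that each omitted 1 sample) and Itgax had -1.32 (adjusted p = 0.116), both below the reference on all arrays.

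Of 14 CD4 T cell and Th17 markers 4 were named, and all 4 were above the reference on every array. Their mean log2 ratio ran from 2.43 to 3.77 in null and from 4.55 to 4.84 in heterozygous cells. Il22 fell on both of its probes (log2 fold changes -3.41 and -3.15, limma adjusted p = 0.00996 and 0.0184), which passed in 4 and 2 of the fits that each omitted 1 sample. Il23r, Ccr6 and Il1r1 did not pass, with log2 fold changes of -1.59, -2.45 and 1.09 (adjusted p = 0.124, 0.109 and 0.0623). Cd4 and the Cd3 chains had no named probe, so these 4 genes could not check that the cells were CD4 T cells.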

How the data were processed

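Expression was measured on 6 two-colour Agilent arrays. Per the submitters' processing notes, Agilent Feature Extraction 10.7 and Partek were used. The deposited values are log2 ratios of sample to reference, which the authors call normalized per the file headers, by a method the labels do not name. The authors' deposited table holds an unadjusted p-value and a signed fold change (taken here as a score) for 828 probes, from a 1-way ANOVA in Partek per the file headers. Log2 differences of group means matched these folds within 1.03e-05 on all 828. Symbols came only from that table and were updated through RefSeq synonyms, leaving 21933 probes unnamed. Intensities and slides were not used here, so dim probes and batches could not be examined, and the number of arrays limits the precision.

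Each probe was tested with limma 3.58.1 in R 4.3.3 (lmFit, eBayes, no covariate, no further normalization, Benjamini-Hochberg adjustment over 22749 probes). Probes of a gene were kept apart, because averaging only the listed ones would mix values selected for change. The step was tested on simulated data. The members and gene lists were chosen with earlier results of these data known. Named are the members, Irf4, the listed genes with a named probe and the 3 nearest patterns of each member probe. Alternatives covered normalization, zeros, variances, the methods' t-test, averaging, a replicate block and leaving out samples.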

Additional observations from a re-analysis of the deposited data

How the results depend on the processing

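No result reversed under any setting run. The number of probes past the threshold, 725, was 76 with the replicate block and 70 to 398 with 1 sample left out, and 508 to 856 under the other settings. The first Nkg7 probe kept its log2 fold change of 2.83 but had an adjusted p of 0.0553 with the methods' t-test and 0.0747 with the replicate block. The second Nkg7 probe became 2.31 (adjusted p = 0.0392) with the listed probes averaged, which pools it with the first. Klre1 kept -3.57 with an adjusted p of 0.0853 with the methods' t-test and 0.116 with the replicate block, and had -3.47 (0.0746) with zeros as missing. Leaving out 1 sample gave 2.43 to 3.12 and 1.45 to 2.24 for the Nkg7 probes, 1.93 to 3.04 for Prf1 and -4.03 to -3.12 for Klre1; fewer samples enter these fits. Prf1 passed in 0 of the 10 other settings (adjusted p 0.1 to 0.203). With the replicate block Irf4 had -2.26 (adjusted p = 0.0428), and of the 15 other probes of the gene lists past the threshold 3 still passed, those of Tox and Ikzf2, while the rest, Crtam and Runx3 among them, had adjusted p-values of 0.0524 to 0.123. Samples of the same number deviated from their group means with correlations of 0.0973, -0.0126 and -0.0367, so the numbers were not treated as pairs. Klre1 could not be tested where probes with a zero were left out. Of the calls, 370 were higher and 355 lower, against 372 and 253 with median centring, 368 and 268 with quantile normalization and 305 and 203 with arrays scaled to one spread. The cause of these shifts was not tested.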
